A study of Rattus norvegicus with 4 samples.

Results

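Ephrins and their Eph receptors were examined as a group of 10 genes in cultured olfactory ensheathing cells, glia that surround olfactory nerve fibres. The 10 genes were the ligands Efna1, Efna5, Efnb1, Efnb2 and Efnb3 and the receptors Epha3, Epha4, Epha7, Ephb1 and Ephb2. They were found by name among 35658 gene names on the array and were represented by 15 of its 41012 probes, each with 1 spot per array. The array names 9 of the 10 directly. Epha4 stands on it as RGD1560587, a synonym of Epha4 in the RefSeq gene table of the GRCr8 assembly. Male Fischer rats gave both kinds of culture. Cells from the olfactory mucosa were labelled with Cy5, and cells from the olfactory bulb, against which they were set, with Cy3. Both kinds were grown by the same protocol, and 4 arrays each held 1 biological replicate as a pair of mucosa and bulb cells. Dyes were never swapped, so dye and tissue cannot be told apart by the design, and messenger RNA had been amplified by a global PCR before labelling.

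Ephrins are membrane-bound ligands, and Eph receptors are receptor tyrosine kinases that meet them on the surface of a neighbouring cell. Class A ephrins are held by a lipid anchor and bind mainly EphA receptors. Class B ephrins cross the membrane and bind mainly EphB receptors, and EphA4 also binds class B ligands. Signals run into both cells, and contact often ends in repulsion, which sorts cells and steers growing axons. Ephrin-A and EphA proteins take part in the mapping of olfactory sensory axons onto the bulb in mice.

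Of the 15 probes, 6 were placed on the rn4 build in separated pieces, as a probe across an exon junction is, and 9 in 1 piece. The sequences below are those of the probes that carry the main results, 5′ to 3′. The Efna5 probe carries the one call among the 10 genes and lies at chr9:101227748-101233630 on the minus strand, where its 60 bases are split by 5823 bases of genome.
Efna5: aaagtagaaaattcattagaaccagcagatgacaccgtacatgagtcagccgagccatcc
The Efnb2 probe (chr16:86209635-86225198, plus strand) and the Efnb3 probe (chr10:56376194-56376438, minus strand) are shown because they read matching stretches of 2 related ligands. They match at 40 of 59 aligned bases without gaps, or 67.8%, and capitals mark the shared bases.
Efnb2: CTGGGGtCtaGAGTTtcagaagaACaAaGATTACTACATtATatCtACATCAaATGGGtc
Efnb3: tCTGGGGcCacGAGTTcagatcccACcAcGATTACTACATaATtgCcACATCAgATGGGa
The brightest Epha4 probe (chr9:76686923-76690136, minus strand) is set against the Epha2 probe (chr5:160206847-160207548, plus strand), its closest match among family probes. They share 40 of 55 aligned bases, or 72.7%, in capitals.
Epha4: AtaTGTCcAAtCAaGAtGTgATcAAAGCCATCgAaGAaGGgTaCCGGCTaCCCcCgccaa
Epha2: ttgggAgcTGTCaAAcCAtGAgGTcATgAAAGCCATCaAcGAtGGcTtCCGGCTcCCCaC
The brighter Epha7 probe (probe 1, chr5:44875578-44875637, plus strand) and the second one (probe 2, chr5:44854010-44858047, plus strand) are shown because their ratios differed on single arrays.
Epha7 probe 1: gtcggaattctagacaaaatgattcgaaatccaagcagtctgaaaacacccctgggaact
Epha7 probe 2: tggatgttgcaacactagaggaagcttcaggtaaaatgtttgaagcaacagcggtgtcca
Over the 383 pairs formed by a probe of the 10 genes and a probe of another family gene, the median identity was 38.6% and the highest was the 72.7% of Epha4 with Epha2. Pairs were aligned without gaps over at least 40 bases.

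Efna5, which encodes ephrin-A5, a lipid-anchored ligand that repels many EphA-bearing axons, was the one gene of the 10 with a call. Its normalised log2 signal was 10.86, 10.88, 10.96 and 11.17 on mucosa arrays 1 to 4, against 9.07, 8.59, 8.61 and 8.91 in the bulb cells of the same arrays. The lowest mucosa value lay above the highest bulb value, so the groups did not overlap. The log2 ratio of mucosa over bulb was 1.79, 2.28, 2.35 and 2.26 on the 4 arrays, with a mean of 2.17 ± 0.26 (SD, n = 4; 95% interval 1.66 to 2.68), which is 4.50-fold. It passed limma's moderated test over all 31897 gene names (adjusted p = 0.00459). In bulk RNA, more cells that express a gene and more RNA per cell cannot be told apart.

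The test called 1 of the 9 testable genes higher and 0 lower in mucosa cells, against 3.23% of all gene names called higher and 3.38% called lower. In either direction, 6.62% of all gene names were called. At an unadjusted p under 0.05 the count was also 1 higher and 0 lower of the 9, against 11.1% and 12.6% of all gene names. Normalised signals of mucosa and bulb cells did not overlap for 1 of the 9, and for 20.8% of all gene names. All 4 arrays had 1 sign for 3 of the 9 genes (Efna5, Efnb3 and Epha3), and for 33.6% of all names. The gene-wide counts were 1031 higher and 1079 lower, or 48.9% higher among calls, and 59.6% higher with median centring in place of loess. A gene was represented by its brightest tested probe, and testing required a signal well above background in 1 channel or both on 3 or more arrays.

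**Figure D1:**
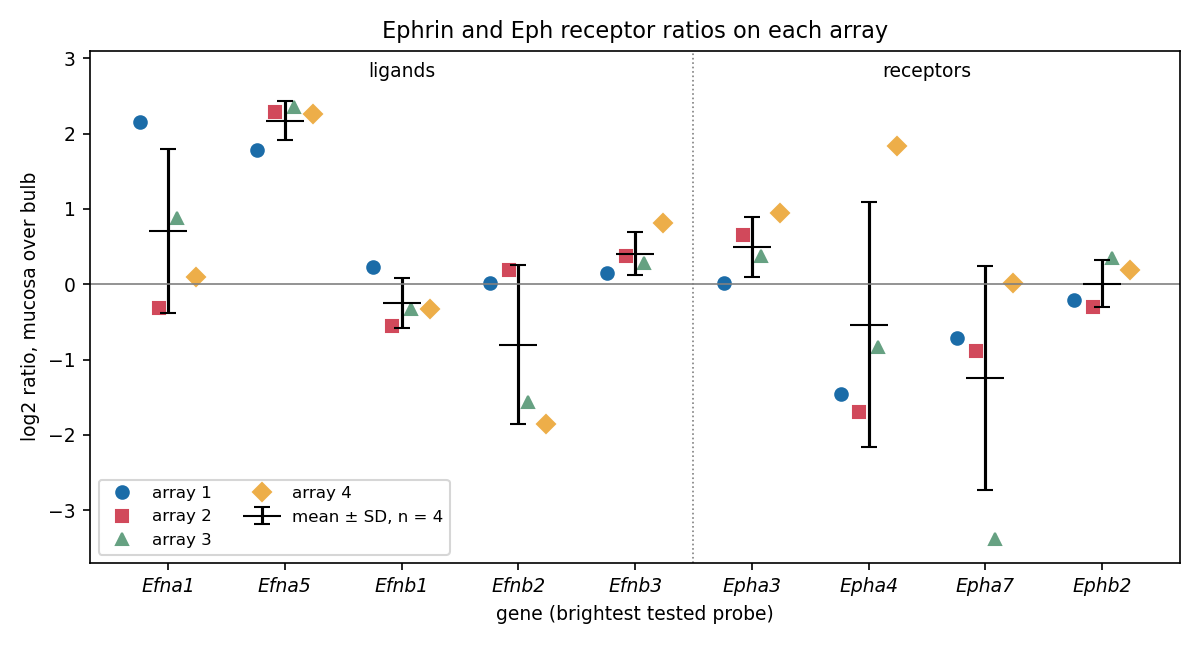
Log2 ratio of mucosa over bulb (vertical axis) for the 9 tested genes, with a coloured symbol for each of the 4 arrays and a black bar for the mean ± SD (n = 4). Efna5 lies between 1.79 and 2.35 on all arrays, while Epha4 spreads between -1.70 and 1.84 and Epha7 between -3.39 and 0.01.

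Efna1, which encodes ephrin-A1, a ligand first found as a cytokine-induced gene of endothelium, differed between arrays in bulb cells more than in mucosa cells. Its log2 signal was 8.80, 8.85, 8.91 and 8.62 in mucosa cells, against 6.64, 9.16, 8.03 and 8.52 in bulb cells. The SD was 0.12 in mucosa cells and 1.07 in bulb cells, and the low bulb value of array 1 stood beside the largest ratio. The groups overlapped, since bulb array 2 lay above every mucosa value. The ratios were 2.15, -0.31, 0.88 and 0.10, and the mean of 0.70 ± 1.08 (SD, n = 4; 95% interval -0.30 to 1.71) did not pass (limma adjusted p = 0.358). Without array 1 the mean was 0.22 (adjusted p = 0.696).

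The 3 class B ligands gave no call, and 2 of their means were negative. Efnb2, which encodes ephrin-B2, a ligand that marks arterial endothelium, split the arrays. Its log2 signal was 9.52, 9.06, 7.79 and 7.79 in mucosa cells, against 9.51, 8.87, 9.35 and 9.64 in bulb cells. Mucosa signals were near or above those of bulb cells on arrays 1 and 2 and below them on arrays 3 and 4. The mean ratio was -0.80 ± 1.05 (SD, n = 4; 95% interval -1.79 to 0.18; limma adjusted p = 0.292). With 1 array left out it lay between -1.13 and -0.45, the smallest size being without array 4.

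Efnb3, which encodes ephrin-B3, a midline barrier to corticospinal axons in the mouse, had ratios of 0.15, 0.38, 0.28 and 0.82. Its log2 signal was 9.90, 10.07, 9.76 and 10.74 in mucosa cells, against 9.75, 9.69, 9.49 and 9.92 in bulb cells. Each mucosa value lay above its own bulb partner, though the groups overlapped, and the mean of 0.41 ± 0.29 did not pass (SD, n = 4; 95% interval -0.11 to 0.92; limma adjusted p = 0.306). Efnb1, the X-linked gene of ephrin-B1, had log2 signals of 6.98, 6.85, 7.04 and 7.32 in mucosa cells, against 6.76, 7.41, 7.37 and 7.64 in bulb cells. Its ratio was positive on array 1 alone and averaged -0.25 ± 0.33 (SD, n = 4; 95% interval -0.78 to 0.29; limma adjusted p = 0.532). The intervals of Efnb1 and Efnb3 reach from below 0 to above it and do not show equal levels.

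**Figure D2:**
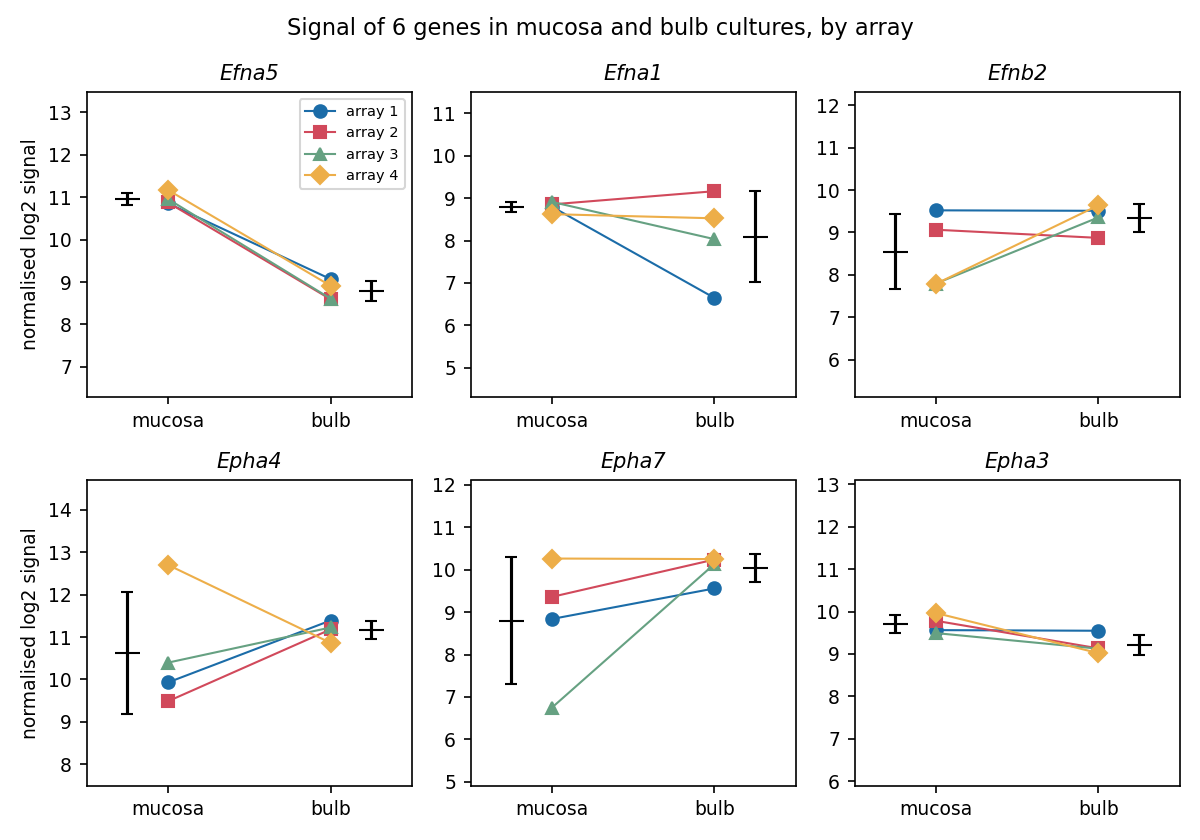
Normalised log2 signal (vertical axis, each panel spanning the same width) of 6 genes in mucosa cells (left) and bulb cells (right), with a line joining the 2 channels of each array and black marks for the mean ± SD (n = 4). The Efna5 lines all fall toward the bulb side, the Efna1 lines fan out on the bulb side, and those of Efnb2, Epha4 and Epha7 fan out on the mucosa side.

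No receptor of the 10 was called in either direction. Epha3, a receptor of class A ligands such as ephrin-A5, had no negative ratio on any array. Its log2 signal was 9.56, 9.78, 9.49 and 9.96 in mucosa cells, against 9.55, 9.13, 9.12 and 9.02 in bulb cells. The groups overlapped through bulb array 1, and the mean ratio was 0.50 ± 0.40 (SD, n = 4; 95% interval -0.07 to 1.06; limma adjusted p = 0.261).

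Epha4, a receptor with ligands in both classes that is found on neurons and on astrocytes, had a tight signal in bulb cells and a wide one in mucosa cells. At its brightest probe the log2 signal was 9.93, 9.48, 10.40 and 12.70 in mucosa cells, against 11.39, 11.18, 11.23 and 10.86 in bulb cells. Mucosa cells were lower on arrays 1 to 3 and higher on array 4, with ratios of -1.46, -1.70, -0.83 and 1.84. The mean of -0.54 ± 1.63 did not pass (SD, n = 4; 95% interval -1.96 to 0.89; limma adjusted p = 0.616). Without array 4 it was -1.33 (adjusted p = 0.0777), without array 1 it was -0.23 (adjusted p = 0.862) and without array 2 it was -0.15 (adjusted p = 0.924).

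Epha7, another receptor of class A ligands with a role in the developing cortex, was likewise variable on the mucosa side. Its brighter probe had log2 signals of 8.84, 9.36, 6.75 and 10.26 in mucosa cells, against 9.56, 10.24, 10.14 and 10.25 in bulb cells. Mucosa cells lay below bulb cells on arrays 1 to 3 and level with them on array 4, and the ratio on array 3 was -3.39. The mean was -1.24 ± 1.48 (SD, n = 4; 95% interval -2.56 to 0.07; limma adjusted p = 0.229), and without array 3 it was -0.53 (adjusted p = 0.380). The SD over arrays of Epha4 and Epha7 exceeded the 90th percentile of all gene names, 1.17, where the median was 0.53.

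Ephb2, a receptor of class B ligands that helps to sort Schwann cells in rat nerve, showed no clear direction. At its brightest probe the log2 signal was 11.06, 10.85, 11.24 and 11.32 in mucosa cells, against 11.26, 11.15, 10.89 and 11.13 in bulb cells. The mean ratio was 0.01 ± 0.31 (SD, n = 4; 95% interval -0.52 to 0.53; limma adjusted p = 0.986), and the sign turned when its probes were averaged (-0.07). Ephb1, a receptor that keeps some retinal axons on their own side of the brain, was too dim to test. Its 1 probe did not stand well above background in mucosa cells on any array, and did so in bulb cells on 2 of 4. The measured log2 mean was 5.90 ± 0.15 in mucosa cells and 6.34 ± 0.42 in bulb cells (SD, n = 4 each). The ratios were -1.03, 0.09, -0.25 and -0.57, the groups overlapped, and no direction is given.

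For the 3 genes with several probes, probes of 1 gene disagreed on single arrays. On array 4 the Epha4 probes had log2 ratios of 1.84 (probe 1), -4.22 (probe 2) and 0.23 (probe 3), a range of 6.06, while on array 3 they lay within 0.81 of each other. In mucosa cells the log2 signal of probe 2 was 10.27, 9.29, 8.98 and 6.38, against 10.75, 10.22, 10.25 and 10.60 in bulb cells, so the low value stood in the mucosa channel of array 4, where probe 1 was highest. Probe 2 averaged -1.72 ± 1.70 and probe 3 averaged -0.26 ± 0.58 (SD, n = 4 each), with adjusted p = 0.158 and 0.602 in limma over all 36749 probes. That fit called 3.13% of all probes higher and 3.42% lower, 6.54% in all.

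Epha7 probe 2 had ratios of 0.93, -0.56, -1.95 and -2.69, with a mean of -1.07 ± 1.59 (SD, n = 4; adjusted p = 0.322 in limma over all probes). Both Epha7 probes were low on array 3, but on array 4 probe 1 was at 0.01. Ephb2 probe 2 had 0.25, 0.68, -0.23 and 0.67, and probe 3 had 0.21, 2.06, -1.40 and -3.17. Ephb2 probe 3 stood well above background on 3 of 4 arrays in each channel. Its lowest log2 signals were 5.83 in mucosa cells on array 4 and 6.42 in bulb cells on array 2. Epha7 probe 2 stood well above background on 3 of 4 arrays in mucosa cells, where its lowest signal was 6.08, on array 4. The most extreme ratios of these 2 probes stood on the same arrays as these low signals. Epha4 probe 2, with a mucosa signal of 6.38 on array 4, was well above background on all 4 arrays in each channel. The cause of the disagreement between probes was not tested. Averaged over arrays, the range between probes of 1 gene was 2.43 for Epha4 and 2.10 for Ephb2, with 3 probes each, and 1.53 for Epha7, with 2. Over 554 gene names with 3 tested probes the median of that range was 1.12 and the 90th percentile 1.94, and over 3281 names with 2 probes they were 0.70 and 1.38. Efna5 has 1 probe, so its call could not be checked against a second sequence.

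**Figure D3:**
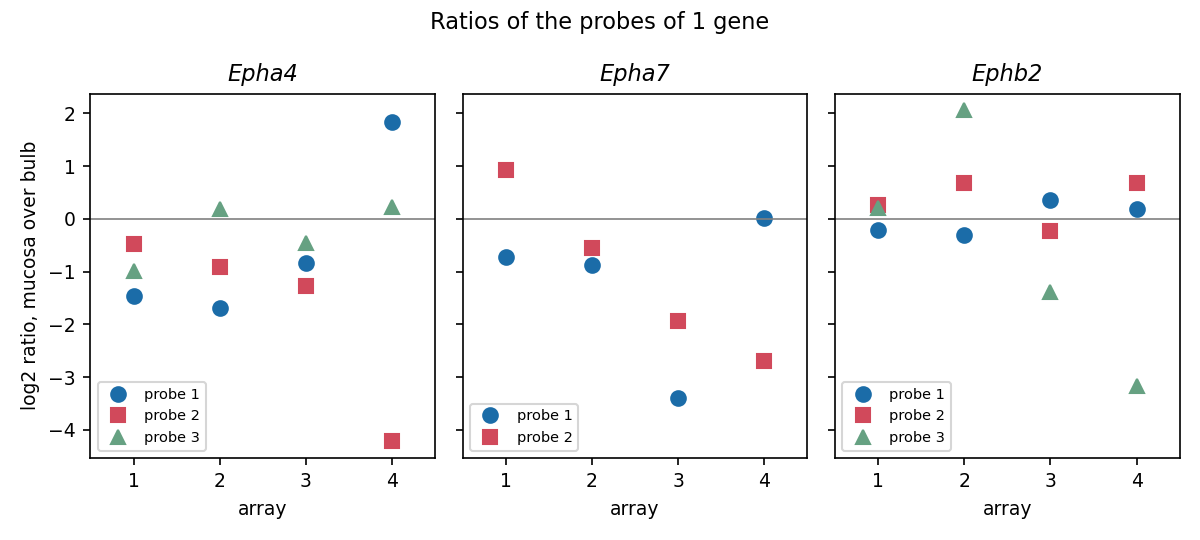
Log2 ratio of mucosa over bulb (vertical axis) on arrays 1 to 4 (horizontal axis) for each probe of Epha4, Epha7 and Ephb2, with probe 1 the brightest. On array 4 the Epha4 probes lie between -4.22 and 1.84, and the Ephb2 probes between -3.17 and 0.67. Epha7 probe 2 and Ephb2 probe 3 were not well above background on every array.

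By class, the 5 class A genes had a median ratio of 0.50 (range -1.24 to 2.17) and the 4 tested class B genes a median of -0.12 (range -0.80 to 0.41), beside 0.01 for all gene names. On arrays 1 to 4 the medians were 0.01, -0.31, 0.37 and 0.95 for class A, and 0.08, -0.05, -0.03 and -0.07 for class B. Class A lay above class B on arrays 3 and 4 and below it on arrays 1 and 2. By role, the 5 ligands had a median of 0.41 and the 4 tested receptors -0.26. The ligand medians were 0.22, 0.19, 0.28 and 0.10, and the receptor medians -0.46, -0.59, -0.24 and 0.57, so ligands lay above receptors on arrays 1 to 3 and below them on array 4. With 1 array left out, the class A median lay between 0.22 (without array 1) and 0.54, and the receptor median between -0.69 (without array 4) and -0.02 (without array 2). With median centring the receptor median was -0.03. Genes are not replicates, and these medians carry no test. Within class A, the ligand Efna5 was higher in mucosa cells, and the receptors Epha3, Epha4 and Epha7, to which it can bind, had mean ratios of 0.50, -0.54 and -1.24 without a call.

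Of the 12 other ephrin and Eph genes found on the array, 11 were tested, and 2 were called higher and 0 lower. Efna2, Epha8, Epha10 and Ephb4 stand on the array under other names. The shares over all gene names were 3.23% higher and 3.38% lower. Epha2, a receptor common on epithelia, had a mean ratio of 1.54 ± 0.68 (SD, n = 4; limma adjusted p = 0.0369). Ephb3, a receptor of class B ligands, had 1.05 ± 0.36 (SD, n = 4; limma adjusted p = 0.0480). Leaving out any 1 of the arrays ended both calls (highest adjusted p = 0.126 for Epha2 and 0.180 for Ephb3). The Epha2 ratios were 1.04, 1.45, 1.13 and 2.53 on the 4 arrays, and those of Ephb3 were 0.59, 1.19, 1.45 and 0.97. The ligand Efna3 averaged 0.76 ± 0.18 and the receptor Ephb4, which pairs with ephrin-B2 on veins, averaged 0.79 ± 0.20 (SD, n = 4 each). At these brighter probes both were positive on all 4 arrays and missed the threshold (limma adjusted p = 0.0812 for Efna3 and 0.0766 for Ephb4). The other probe averaged 0.47 for Efna3 and 0.28 for Ephb4 (adjusted p = 0.291 and 0.554 in limma over all probes). That Ephb4 probe had a negative ratio on array 3, -0.48. Without a call, the receptors Epha6, Epha8, Epha10 and Ephb6 had means of 0.43, 0.41, 0.65 and 0.25, and the ligands Efna2 and Efna4 had 0.23 and -0.15. Neither Epha5 probe was bright enough to test. Epha1 had 3 probes with means of -0.48, -0.33 and -1.56, and the last was called lower in the fit over all probes (adjusted p = 0.0193). The median ratio was 0.43 over these 11 genes and 0.41 over the 20 tested family genes, beside 0.01 for all gene names. These medians carry no test.

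**Figure D4:**
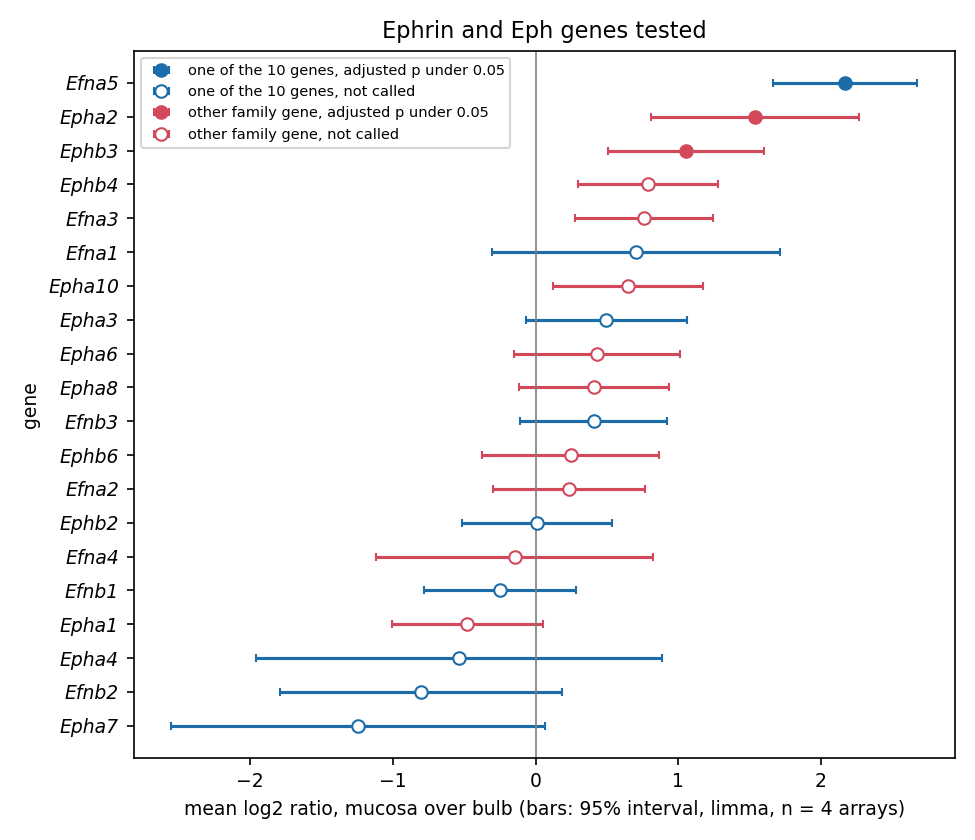
Mean log2 ratio of mucosa over bulb (horizontal axis) with limma's 95% interval (n = 4 arrays) for the 20 tested ephrin and Eph genes, ordered by ratio. Filled symbols mark the 3 genes called higher, Efna5, Epha2 and Ephb3, and 0 genes were called lower.

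Among 73 genes listed as signalling partners of Ephs and ephrins, 62 were tested, with 4 called higher, 3 lower and a median ratio of -0.07. Of all gene names, 3.23% were called higher and 3.38% lower. Rock2, a kinase that contracts the actin network, had ratios of 2.84, 2.45, 2.32 and 2.57 and a mean of 2.55 ± 0.22 (SD, n = 4; limma adjusted p = 0.00287), with 1.58 ± 0.30 at a second probe. Mmp2, a matrix protease, had 2.56 ± 0.28 at its brighter probe and 1.69 ± 0.11 at the other, and Grb10, an adaptor that binds EphB1, had 1.90 ± 0.43 (SD, n = 4 each). The other Grb10 probes had 2.00 and 1.84. Rgs3, which has a form that binds ephrin-B ligands, had 1.51 ± 0.58 (SD, n = 4; limma adjusted p = 0.0300). Lower in mucosa cells were Anks1a, an adaptor of Eph receptors, at -2.16 ± 1.10, the kinase gene Mapk3 at -1.08 ± 0.31 and the Rac activator gene Tiam1 at -0.89 ± 0.11 (SD, n = 4 each). Tiam1, at a limma adjusted p of 0.0491, missed the threshold in the fit over all probes. Its other tested probe averaged -0.85 ± 0.84 (SD, n = 4; adjusted p = 0.205 in that limma fit), with ratios between -2.03 and -0.05. Of 21 alternatives, 21 called Rock2 and Mmp2, 19 Grb10, 16 Rgs3, 13 Anks1a, 13 Mapk3 and 8 Tiam1. Some of these alternatives repeat the main fit or each other, as described below. Rock2 and Mmp2 kept their calls without any 1 array. Grb10 lost its call without array 1 or 2, Rgs3 without array 1, 2 or 3, Anks1a without array 1, 2 or 4, and Mapk3 and Tiam1 without each array in turn (highest adjusted p = 0.0612, 0.120, 0.0997, 0.137 and 0.182).

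All 13 markers of ensheathing and Schwann glia were well above background on every array in both cell types, with 0 called higher, 6 lower and a median ratio of -1.03. The same held for all tested markers of fibroblasts, meninges, smooth muscle and pericytes, endothelium and epithelium, so presence above background does not tell the labelled cell type from others here. The mean log2 level of the ensheathing and Schwann glia markers lay between 9.91 and 10.31 on the mucosa arrays, against 11.14 to 11.21 on the bulb arrays. Fibroblast markers had 5 higher and 2 lower of 11, a median of 1.06, and levels of 13.33 to 13.51 in mucosa cells, against 12.47 to 13.11 in bulb cells. Of 7 markers of smooth muscle and pericytes, 4 were higher and 1 was lower, with a median of 1.30 and levels of 11.95 to 12.46 in mucosa cells, against 11.13 to 11.67 in bulb cells. Neuronal markers had 0 higher and 3 lower of 10, astrocyte markers 0 and 2 of 8, and meningeal markers 0 and 1 of 5. Endothelial markers had 1 and 1 of 7, epithelial markers 1 and 1 of 6, and macrophage markers 0 and 0 of 6. Beside these marker counts, 3.23% of all gene names were called higher and 3.38% lower. No tested marker was below background on every array of a group, but the filter had already removed markers too dim in both channels. The endothelial marker Pecam1, which is on the array, was left out in this way. These values stand beside the Efna5 ratio, and the part of other cell types in it was not tested.

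The median spot signal in Cy5 was 842, 839, 567 and 598 on arrays 1 to 4, and in Cy3 it ranged over 342 to 382. Spots well above background made up 89.8%, 91.1%, 82.8% and 86.3% in mucosa cells on arrays 1 to 4, and 88.4% to 89.5% in bulb cells. Pearson correlations of the ratios between pairs of arrays, across gene names, lay between 0.35 and 0.54. All arrays were on 1 slide with 1 scan time. The labels call the arrays biological replicates, but they do not say how many animals gave each culture, and their number limits the precision of every value.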

How the data were processed

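Per the file headers, Agilent Feature Extraction 10.5.1.1 wrote the 4 scanner files, where the labels and the submitters' processing notes give 9.1. In the deposited files, mean spot signals and local backgrounds are intensity values on a linear scale, not yet normalized, on 45018 features of 60-base probes, and 250 ng of cDNA were labelled per channel, per the labels' protocols. The deposited value table holds the log10 ratio of Cy5 over Cy3 that the scanner software made from background-subtracted, dye-normalized signals, and it gave the same counts of calls as the processed signals of the scanner files. Deposited flags (0 or 1, other values) mark outlier, saturated and well-above-background spots. Probe coordinates are those of rn4, per the file headers, and probe sequences are those of the files.

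Signals were corrected with normexp (offset 50) and normalized by loess in limma 3.58.1 under R 4.3.3, and outlier spots were left out. Normalised log2 signals per channel also had Aquantile scaling between arrays. A probe was tested if at least 0.5 of its spots were well above background on at least 3 arrays in 1 channel, which kept 36749 probes. The brightest probe stood for each of 31897 gene names. The mean log2 ratio was tested against 0 with lmFit and eBayes (6.36 degrees of freedom), with Benjamini-Hochberg adjustment at 0.05. The fit was also run on simulated ratios with independent noise. These held no dye, amplification or array effects, so that run cannot speak to such effects. Figures used Python 3.11.15 and matplotlib 3.10.9. The text names all 10 genes with their probes, every other family gene found on the array, and called partners, at most 6 a direction. Among partners and markers, Grb10, Anks1a and some others were read under other array names. The genes and lists were chosen with earlier results of these data known.

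Alternatives changed the background correction, the normalization, the filter, the probe rule, the variance, the pairing and the arrays used. Not all of them are separate checks. Aquantile scaling between arrays and leaving out saturated probes each gave the same ratios and calls as the main fit. The deposited value table gave nearly the same values as the processed signals. Subtracting a loess curve of the ratio against probe GC content (span 0.3) was added after seeing the data.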

Additional observations from a re-analysis of the deposited data

Results flagged for a closer look

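The Efna5 log2 ratio was the one of 14 tested probes of the 10 genes with a sample far from the others. Array 1 had 1.79, and the other arrays had 2.28, 2.35 and 2.26. The gap to the nearest array was 0.842 of the whole range, above Dixon's 95% critical value of 0.829. Chance alone flags about 1 in 20 groups of this size, so 1 flag among 14 is near that rate. Without array 1 the mean ratio was 2.30, and Efna5 was still called.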

How the results depend on the processing

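Efna5 was called higher under all 21 alternatives, some of which repeat the main fit or each other. Its log2 ratios lay between 2.11 and 2.44, and its highest limma adjusted p was 0.0369, with an array left out. The other 8 tested genes were not called under any alternative, and Efna1, Efnb1, Efnb2, Efnb3, Epha3, Epha4 and Epha7 kept their sign under each. The lowest adjusted p among these was 0.0521, for Epha4. Ephb2 turned negative with scale normalization (-0.028), the mean over probes (-0.074), array weights (-0.080), the GC trend removed (-0.038), and without replicate 3 (-0.11) or 4 (-0.050). With 1 array left out, Ephb2 ranged between -0.11 and 0.11. The processed signals and the deposited value table gave 696 genes called lower, a class B median of -0.24 and a ligand median of 0.49. With median centring the ligand median was 0.61 and the receptor median -0.031. The class B median was -0.25 with no filter, which added Ephb1, and -0.20 with array weights. Without the replicate block, with channels taken as unpaired, 1739 genes were called higher and 1743 lower. With 1 array left out, 282 to 540 genes were called higher and 263 to 525 lower, fewer samples being tested. The ligand median then lay between 0.22 and 0.45, the class B median between -0.16 and -0.017, the class A median between 0.22 and 0.54 and the receptor median between -0.69 and -0.020. Single ratios ranged between -0.41 and -0.15 for Efnb1, -1.13 and -0.45 for Efnb2, 0.27 and 0.49 for Efnb3, and 0.34 and 0.66 for Epha3. Epha2 was called under 15 of 21 alternatives and Ephb3 under 12. The cause of these shifts was not tested. Dim signal limits Ephb1.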
